A study of Mus musculus with 5 samples.

Results

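The 9 genes described here mark B cells or their maturation. Cd79a, Cd79b, Ms4a1, Pax5, Bank1, Cd37, Fcer2a, Cr2 and Cd5 were followed by name among the 26189 genes counted in single cells of the mouse aortic arch. All 9 were present in the count tables. They were described in 149 cells of a B cell gate, out of 1656 cells kept, and in the other cell types of the same tissue. The gate was set by 8 other B lineage markers, and no member took part in it.

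The aortic cells were 1 sample made of 2 pools, each carrying its own sample tag. The first pool is labelled wild-type (C57BL/6J) and the second Saa3-/- (C57BL/6N-Saa3tm1.1(KOMP)Vlcg/MbpMmucd), so the Saa3 allele and the C57BL/6 substrain named on the label cannot be told apart, although the series calls the mice littermates. All mice were females, 12 weeks old when they received a single intraperitoneal dose of AAVmPCSK9 (ssAAV8/hAAT-mPCSK9D377Y), a liver-directed vector that raises blood cholesterol, and then ate a Western diet for 18 weeks. Cells were released from perfused tissue by enzymes, and live CD45+ cells were sorted. Each genotype has 1 pool and the number of mice in it is not given, so no difference between the pools has a replicate check, and no p-value is given. Intervals below are exact 95% intervals that cover counting error alone.

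B cells read antigen through a membrane immunoglobulin that signals by way of CD79A and CD79B, the paired chains that carry the activating motifs. PAX5 is the transcription factor that sets and keeps B cell identity, MS4A1 (CD20) and CD37 are proteins that cross the cell membrane several times, and BANK1 is a scaffold that links the receptor to tyrosine kinases. FCER2A (CD23, the low-affinity IgE receptor) is characteristic of follicular B cells, CR2 (CD21, a complement receptor) is highest on marginal zone B cells, and CD5 marks T cells and the B-1a subset. In atherosclerosis B cells are found in the adventitia of the aorta and in the lymphoid tissue around it.

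Reference sequence just upstream of the start site is shown for 4 members: for Cd79a as the identity gene with the most molecules, for Fcer2a and Cr2 because they divide the B cells below, and for Cd5 because its distribution differs from that of the others. The sequences are RefSeq's for GRCm38, which held 7 of the 9 members, written 5′ to 3′ on the strand of the gene, from up to 250 bases before the start site and cut where a GENCODE exon begins. Capitals mark matches, on either strand, to the E-box of E2A (CAGGTG, which reads CACCTG on the other strand) and the PU.1 core (GAGGAAG).
Cd79a: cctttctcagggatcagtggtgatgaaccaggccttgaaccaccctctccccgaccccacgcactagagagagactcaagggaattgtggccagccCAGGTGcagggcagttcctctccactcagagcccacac
Fcer2a: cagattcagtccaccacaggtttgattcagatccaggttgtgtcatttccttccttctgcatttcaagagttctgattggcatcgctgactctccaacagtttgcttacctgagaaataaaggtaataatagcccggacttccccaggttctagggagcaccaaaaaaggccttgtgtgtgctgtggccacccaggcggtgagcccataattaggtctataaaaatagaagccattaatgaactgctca
Cr2: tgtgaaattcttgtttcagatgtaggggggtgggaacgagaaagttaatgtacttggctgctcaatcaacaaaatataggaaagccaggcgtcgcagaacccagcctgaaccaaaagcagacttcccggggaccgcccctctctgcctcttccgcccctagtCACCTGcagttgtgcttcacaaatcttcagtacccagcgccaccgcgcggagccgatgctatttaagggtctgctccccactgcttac
Cd5: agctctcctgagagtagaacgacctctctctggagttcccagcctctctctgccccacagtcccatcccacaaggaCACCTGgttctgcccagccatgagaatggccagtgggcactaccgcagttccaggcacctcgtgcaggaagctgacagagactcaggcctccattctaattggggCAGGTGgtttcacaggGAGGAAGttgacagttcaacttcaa
These stretches lie at chr7:24897247-24897380 on the plus strand for Cd79a, and on the minus strand at chr8:3694176-3694424 for Fcer2a, chr1:195176720-195176969 for Cr2 and chr19:10739003-10739224 for Cd5. The E-box letters occurred once in Cd79a, with the first base 154 bases before the RefSeq start site, once in Cr2 at 88 bases, and 2 times in Cd5. They did not occur in the 249 bases of Fcer2a. Of 32851 windows of 250 bases before RefSeq start sites, 17.2% held the E-box letters and 10.6% the PU.1 letters. The octamer ATTTGCAT (1.6% of windows) and the EBF1 core CCCNNGGGA (5.6%) had no match in the 4 stretches. A match is a description of the letters and says nothing about binding.

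The pool labelled wild-type held 889 cells and the pool labelled Saa3-/- 854, with no cell barcode in common. A limit of 25% on the mitochondrial share of a cell's molecules left 833 and 823 cells, with a mean of 8751 and 6357 molecules per cell. The summed level of Saa3 itself went against the labels. It was 148 CPM (molecules scaled to a common total of 1000000, used for all levels below) in the pool labelled wild-type and 242 in the pool labelled Saa3-/-. The 2 highest cells held 1124 of the 1268 molecules in the pool labelled Saa3-/- and 382 of 1079 in the pool labelled wild-type. Outside those cells the pool labelled wild-type held more Saa3, so the direction of the sums rests on the highest cells. The count tables do not show which part of the gene those molecules cover. The pools are therefore called by their labels throughout. A further 325 cells met no gate. Although the sort was for CD45+ cells, the fibroblast gate held 82 and 68 cells and the smooth muscle cell gate 103 and 66.

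In the pool labelled wild-type the B cell gate held 48 of 833 cells (5.76%, interval 4.28% to 7.57%), and in the pool labelled Saa3-/- it held 101 of 823 (12.3%, 10.1% to 14.7%). Among cells of the immune gates alone the shares were 9.98% and 19.5%. The median cell carried 3684.5 and 3318 molecules, fewer than the 9921 and 6887.5 of macrophages, and a median of 6 of the 8 gate markers. All 8 markers were present in both pools. Markers of other types were also seen there: the 8 macrophage markers together stood at 2034 and 1444 CPM, against 13872 and 12842 in the macrophage gate, and the 6 fibroblast markers at 704 and 712. The 6 monocyte markers stood at 461 and 686 and the 8 T cell markers at 337 and 301. Of the 7 natural killer cell markers, Ncr1, Klrb1c, Prf1 and Klre1 were at 0 in both pools, and the 7 together had 4 and 25 molecules. In all, 21 of 48 and 55 of 101 B cell gate cells had at least 3 detected markers of some other gate. Over both pools, these were most often markers of fibroblasts (47 cells), macrophages (32), smooth muscle cells (27) and T cells (8). A cell can count for several types. Without all cells that had 3 markers of another gate the B cell shares were 3.33% and 5.99%. The comparison of members between the pools is given without them below where the call changes. Among B cell states, the follicular, B-1 and switched and memory lists were compared again without them. Other comparisons of B cell states below, and those of gene lists between the pools, include these cells.

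Of the 9 members, 7 had a summed level in the B cell gate at least 4 times that of the highest other gate of 15 cells or more, in both pools. Cd37 was highest in B cells and was also found in all the other immune gates of that size, and Cd5 was highest in T cells. Of all 5024 genes with at least 20 molecules in the B cell gate, 0.836% passed the same limit, which 7 of the 8 members tested passed; Cd5 had too few molecules to be tested. The plot of members by gate shows the 3 patterns.

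**Figure D1:**
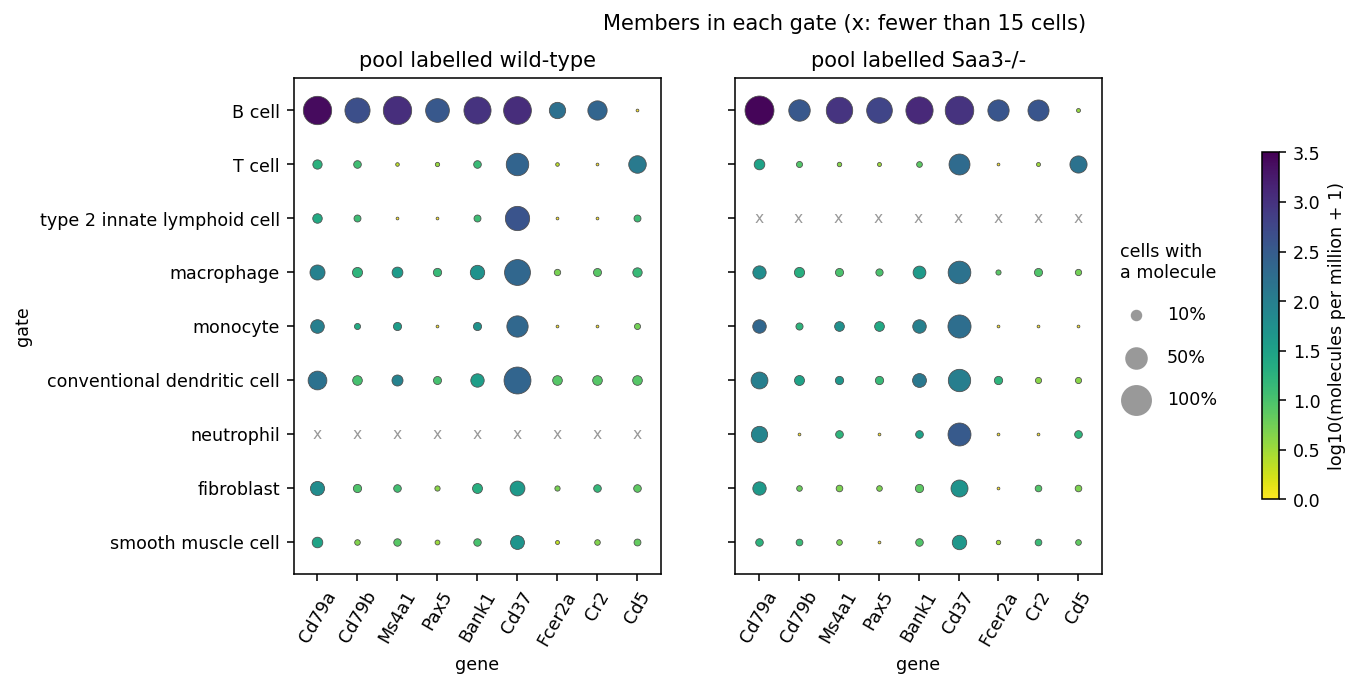
Level (colour, log10 of CPM + 1) and share of cells with a molecule (circle size) of the 9 members in 9 gates, for the pool labelled wild-type (left) and the pool labelled Saa3-/- (right); crosses mark gates with fewer than 15 cells in a pool. The B cell row is dark and large for 8 members and nearly empty for Cd5, Cd37 fills the rows of the immune gates, and Cd5 stands out in the T cell row.

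The receptor chains were Cd79a (chromosome 7, 24897381 to 24902197, plus strand, GRCm38) and Cd79b (chromosome 11, 106311341 to 106314762, minus strand). Cd79a was found in 46 of 48 B cells of the pool labelled wild-type, with a median of 11 molecules and a highest value of 48, and in 101 of 101 of the pool labelled Saa3-/-, with a median of 10 and a highest value of 54. Its summed level was 2496 CPM (2287 to 2718) and 2796 (2634 to 2966). The next highest gates were conventional dendritic cells at 153 in the first pool and monocytes at 219 in the second, which made the B cell level 16.3 and 12.7 times as high. T cells stood at 17.1 and 29.2, with no T cell holding more than 2 molecules. Cd79b had fewer molecules, 96 and 139, at 456 (370 to 557) and 352 (296 to 416) CPM. It was found in 75% and 54.5% of B cells, and in 3.55% to 6.12% of T cells. In gates of fewer than 15 cells, Cd79b reached 91.5 (51.2 to 151) in 6 plasma cells of the first pool. It reached 202 (87.1 to 398), from 8 molecules, in 6 mast cells of the second. After each cell was thinned to 1500 molecules, so that depth was equal, the shares of B cells with Cd79b were 49.6% and 32.9%.

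Ms4a1 (chromosome 19, 11249675 to 11266241, minus strand) was found in 46 of 48 and 84 of 101 B cells. Its levels were 1098 (961 to 1249) and 955 (861 to 1056) CPM, 12.5 and 16.8 times the highest other gate of 15 cells or more. The plasma cell gate of the pool labelled wild-type, with 6 cells, stood at 128 (79.3 to 196), and 1 cell held 15 of its 21 molecules. T cells held 1 and 3 molecules in all. In the pool labelled wild-type 2 B cells held 62 of the 231 molecules of Ms4a1.
Pax5 (chromosome 4, 44524757 to 44710487, minus strand) stood at 352 (276 to 442) and 595 (522 to 676), and was found in 66.7% and 78.2% of B cells. In the other gates of 15 cells or more its level was at most 24.4 CPM, from 3 molecules in monocytes. Bank1 (chromosome 3, 136053363 to 136326066, minus strand) stood at 979 (850 to 1122) and 1261 (1153 to 1377). It was found in 87.5% and 88.1% of B cells. Among other gates of 15 cells or more, the next highest were macrophages at 52.2 in the first pool and conventional dendritic cells at 123 in the second. The plasma cell gate of the first pool, with 6 cells, stood at 61.0 (29.3 to 112), and 1 cell held 8 of its 10 molecules. The annotation places antisense genes across Ms4a1, Pax5 and Bank1, and how the counting treated strand is not given in the sources used here; those counted held at most 4 molecules in a pool's B cell gate.

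Fcer2a and Cr2 were the members found in the fewest B cells apart from Cd5. Fcer2a (chromosome 8, 3681737 to 3694175, minus strand) had 35 molecules, in 15 of 48 B cells, in the pool labelled wild-type and 149 molecules in 54 of 101 cells of the pool labelled Saa3-/-, which is 166 (116 to 231) and 377 (319 to 443) CPM. The highest single cell had 8 and 21 molecules. Cr2 (chromosome 1, 195136811 to 195176716, minus strand) had 49 molecules in 21 of 48 cells and 147 in 53 of 101, which is 233 (172 to 308) and 372 (315 to 438). Both were scarce elsewhere. T cells held 1 Fcer2a molecule and 2 Cr2 molecules in 344 cells, and among gates of 15 cells or more the highest reached 16.2 CPM for Fcer2a (conventional dendritic cells) and 13.7 for Cr2 (fibroblasts).

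Cd37 (chromosome 7, 45233632 to 45239115, minus strand) was highest in B cells but was not confined to them. It was found in 91.7% and 97.0% of B cells. Its B cell level was 1150 (1010 to 1305) and 983 (887 to 1086) CPM, 2.93 and 2.94 times that of the highest other gate of 15 cells or more. In smaller gates Cd37 reached 552 (302 to 925) in 9 neutrophils of the pool labelled wild-type. It reached 390 (247 to 586) in 12 natural killer cells of the pool labelled Saa3-/-. Across the other immune gates of at least 15 cells it ranged from 104 to 393 CPM and was found in 51.8% to 86.2% of cells. Of these gates, the order below B cells in the pool labelled wild-type began with type 2 innate lymphoid cells at 393 (272 to 549). Then came T cells at 238 (206 to 274), conventional dendritic cells at 234 (189 to 286), macrophages at 223 (203 to 244) and monocytes at 210 (154 to 280). The intervals of neighbours in this order below B cells overlap. In fibroblasts and smooth muscle cells, which should lack this leukocyte gene, it stood at 41.0 to 49.1 CPM, so the immune gates were above that background. Thinned to equal depth, 77.6% and 77.7% of B cells kept a molecule. The shares were 13.4% to 40.1% in the other immune gates of at least 15 cells and 5.59% to 8.09% in the stromal gates. Tead2, which overlaps Cd37 on the other strand, had 1 molecule in each pool's B cell gate.

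Cd5 (chromosome 19, 10717116 to 10739002, minus strand) was at or near 0 in B cells. It had no molecule in 48 B cells of the pool labelled wild-type, where 3 counts would be a share of 6.25% and the exact interval reaches 7.40%, and 1 molecule in 101 B cells of the pool labelled Saa3-/-. T cells had 95 molecules in 53 of 147 cells and 136 molecules in 68 of 197 cells, or 116 (93.9 to 142) and 153 (128 to 180) CPM. The B cell share, 0.990% of cells in the second pool (0.0251% to 5.39%), does not exceed the 3.03% to 6.10% of fibroblasts and smooth muscle cells, whose median depth was higher (6661 to 10221.5 molecules against 3318). Its level, 2.53 CPM (0.0641 to 14.1), has an interval that covers the 3.98 to 6.30 CPM of those stromal gates. Macrophages of the pool labelled wild-type held 28 Cd5 molecules beside 61 of Cd3e, the T cell receptor subunit, that is 45.9 for every 100, against 17.7 for every 100 in T cells. The macrophages labelled Saa3-/- held 5 beside 24, that is 20.8 against 22.7 in T cells.

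Within the T cell gate Cd5 varied by subset. Cells with Cd4 and no Cd8 had 284 (190 to 408) CPM in 27 cells of the pool labelled wild-type and 394 (299 to 509) in 37 cells of the pool labelled Saa3-/-. Cells with regulatory markers stood at 168 and 177, and cells with Cd8 and no Cd4 at 170 and 158, with intervals that overlap each other in both pools. The intervals of Cd4 and regulatory cells overlap as well, and those of Cd4 and Cd8 cells overlap in the pool labelled wild-type and not in the pool labelled Saa3-/-. Gamma-delta cells had 1 molecule in 29 cells and 3 in 24, at 7.72 (0.196 to 43.0) and 29.9 (6.17 to 87.5). The first interval covers the 6.30 of fibroblasts in the same pool. The second starts above the 3.98 (0.820 to 11.6) of fibroblasts in its pool, but the 2 intervals overlap. Cells that carried at least 2 of Rag1, Rag2, Dntt, Ptcra and Arpp21, genes of developing lymphocytes, stood at 35.7 (14.3 to 73.5) in 24 cells and 79.2 (52.2 to 115) in 61 cells. The order for Cd37 was another one. Gamma-delta cells stood at 456 (347 to 588) and 409 (294 to 555), and the Rag and Dntt positive cells at 71.3 (39.0 to 120) and 58.6 (35.8 to 90.6). Cd37 in Cd4 cells stood at 127 (67.8 to 218) and 319 (234 to 424), in 27 and 37 cells, with intervals that do not overlap. The T cells in no named subset differed between the pools the other way, at 474 (315 to 684) in 14 cells and 139 (76.2 to 234) in 26 cells. Cd8 cells stood at 332 and 260 and regulatory cells at 192 and 195.

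**Figure D2:**
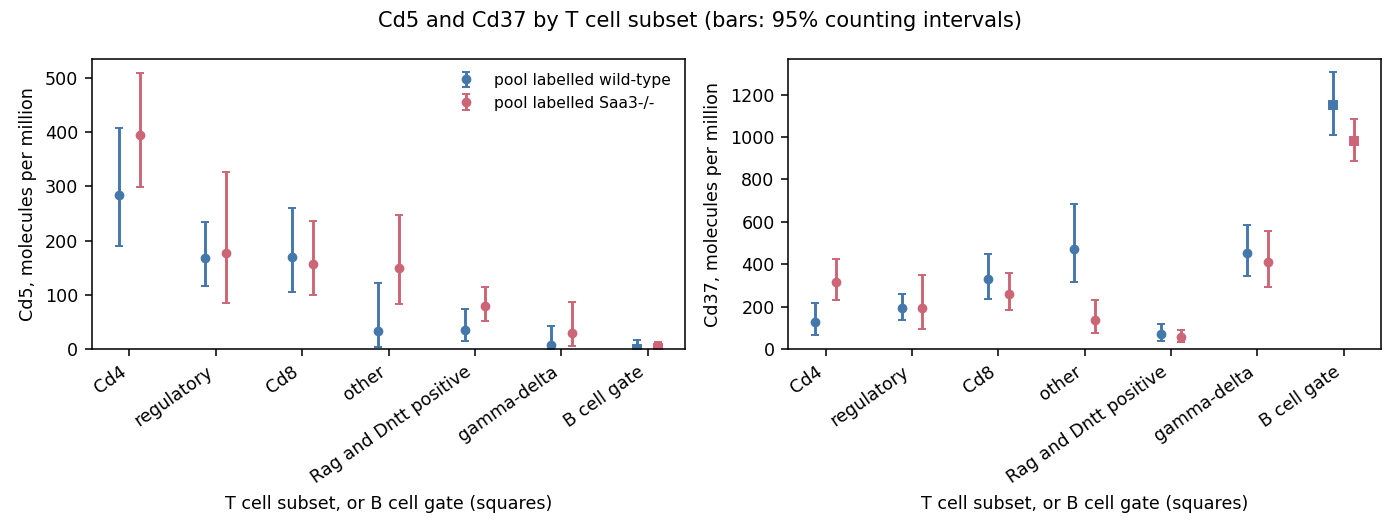
Cd5 (left) and Cd37 (right) in CPM by T cell subset (circles) and in the B cell gate (squares), for the pool labelled wild-type (blue) and the pool labelled Saa3-/- (red), with exact 95% Poisson intervals. Cd5 is highest in Cd4 cells, at 284 and 394, and near 0 in B cells, whereas Cd37 is highest in B cells, at 1150 and 983.

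Cd79a molecules in gated cells outside the B and plasma cell gates came largely from a few cells. Of 602 Cd79a molecules in other gated cells, 374 lay in 28 cells that held at least 5 each, and all 28 had at least 3 of the 8 B gate markers. In macrophages of the pool labelled wild-type, 11 of 175 cells held 157 of the 199 Cd79a molecules. All 11 also had Ms4a1 and Bank1, and their median was 28331 molecules per cell against 9921 for the gate. In the pool labelled Saa3-/- 4 of 128 macrophages held 37 of 69. Of these 4, only 1 had both Ms4a1 and Bank1, and the median of the 4 was 10641.5 molecules against 6887.5 for the gate. Among T cells no cell reached 5. Without the macrophages with at least 5 Cd79a molecules, Bank1 in that gate went from 52.2 and 39.7 CPM to 33.1 and 30.6 (wild-type label first). Cd79b went from 15.8 and 19.0 to 8.68 and 12.4, and Ms4a1 from 38.2 and 9.03 to 7.60 and 7.65. Ungated cells held 263 Cd79a molecules, 202 of them in 19 cells with at least 5. Of these 19, 10 had at least 3 of the 8 B gate markers. Doublets were not called, and whether the cells with at least 5 Cd79a molecules are 2 cells under 1 barcode was not tested. The plasma cell gate had 6 cells in the pool labelled wild-type and 1 in the pool labelled Saa3-/-. Of the 6, 5 had 38 to 239 Jchain molecules with 1375 to 2284 of Ighm; among these 5, Pax5 was at 0 in all but 1, and Cd79a ranged from 3 to 30 molecules.

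**Figure D3:**
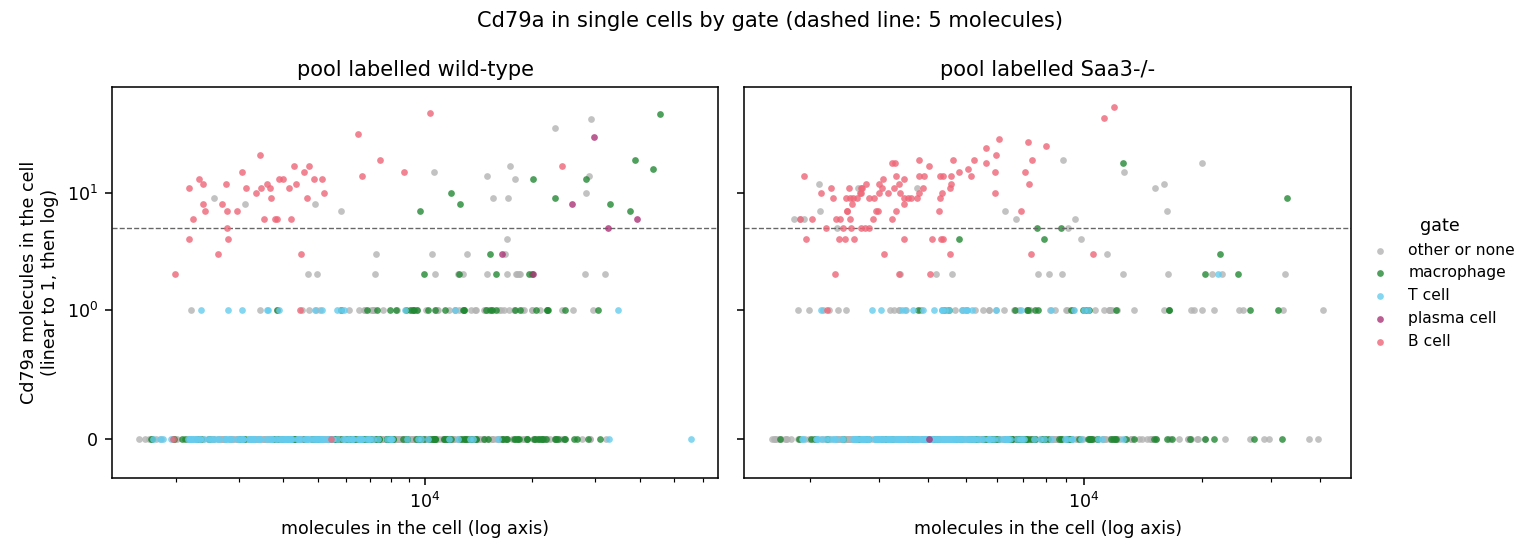
Cd79a molecules (vertical, linear to 1 and then log) against all molecules (horizontal, log axis) in each kept cell, by gate, for the pool labelled wild-type (left) and the pool labelled Saa3-/- (right). Most B cells lie above the dashed line at 5 molecules at a depth near 3684.5 and 3318 molecules, and the macrophages above it, 11 and 4, are mostly cells of high depth.

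Between the pools, within the B cell gate, Fcer2a was the 1 member of the 8 tested that differed by at least 1 on the log2 scale. Its log2 ratio, in which the Saa3-/- label is the numerator and 0.5 molecule is added to each sum, was 1.17, and the intervals of the levels, 116 to 231 and 319 to 443 CPM, do not overlap. Of all 5024 genes with at least 20 molecules, 9.75% passed in either direction and 5.1% were higher in the pool labelled Saa3-/-, and 1 of 8 members is near that background. Of the 854 genes with 100 to 400 molecules, 1.52% passed. The call was not stable: 2 cells held 15 of the 35 molecules of Fcer2a in the pool labelled wild-type, and the log2 ratio was 0.86 without cells of over 2 times the median depth of their gate, 0.97 as a mean over cells, 0.94 after thinning to 1500 molecules and 0.90 without the cells that had 3 markers of another gate. Detection stood at 31.3% (18.7% to 46.3%) and 53.5% (43.3% to 63.5%) of cells, or 16.8% and 35.3% after thinning.

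The other 7 tested members stayed under the limit. Pax5 had a log2 ratio of 0.75 and Cr2 of 0.67, with Pax5 intervals (276 to 442 and 522 to 676) and Cr2 intervals (172 to 308 and 315 to 438) that do not overlap. Bank1 stood at 0.36 and Cd79a at 0.16. On the other side of 0 were Cd79b at -0.38, Cd37 at -0.23 and Ms4a1 at -0.20. The median of the 8 was 0.26 beside 0.00 over all genes tested. Without the cells that had 3 markers of another gate, which left 27 and 46 B cells, Cr2 changed sign to -0.18 and Cd79b reached -1.32; that comparison was also chosen after seeing the data. Whether a pool has fewer molecules of a gene in each cell or fewer cells with it cannot be told from a sum, and the detected shares above are given for that reason.

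**Figure D4:**
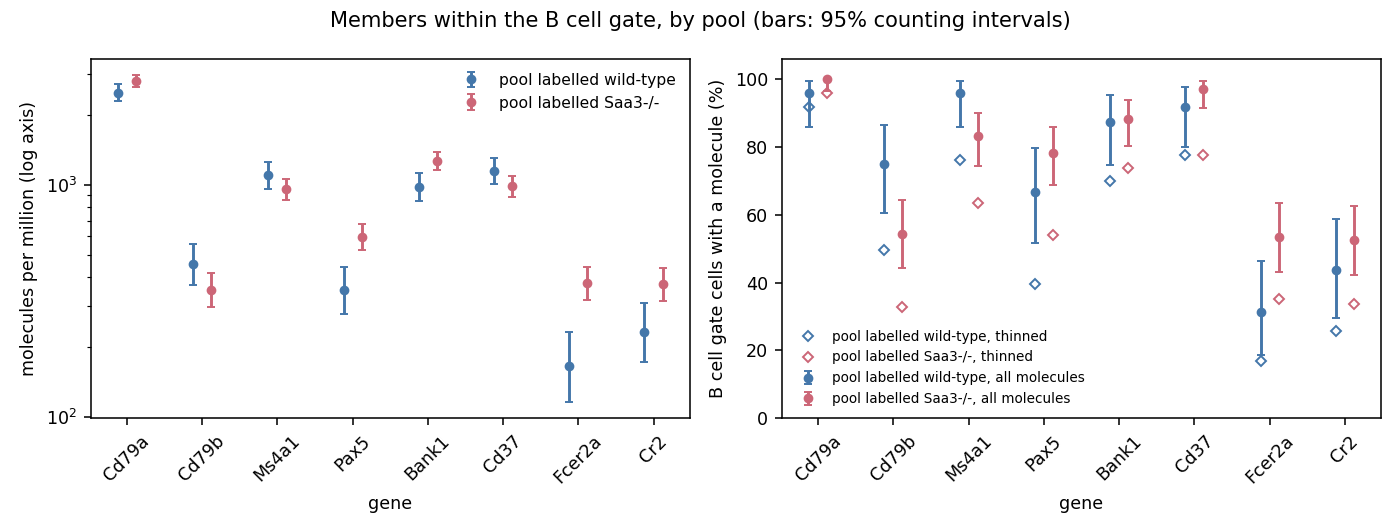
Left, level of 8 members in the B cell gate in CPM (log axis) with exact 95% Poisson intervals; right, share of B cell gate cells with a molecule, over all molecules (circles, exact 95% binomial intervals) and after thinning each cell to 1500 molecules (diamonds). Blue is the pool labelled wild-type (48 cells) and red the pool labelled Saa3-/- (101 cells); the points of Fcer2a are the farthest apart, at 166 and 377.

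The genes of the pathway around the members are set beside the 9.75% of all genes tested, and the 1.52% of genes with 100 to 400 molecules, that passed the limit between the pools. None of 19 tested genes of antigen receptor signalling passed the limit in either direction, with a median log2 ratio of -0.02: Prkcb, the kinase downstream of the receptor, stood at 737 and 727 CPM, Syk at 556 and 545, Lyn at 532 and 496, and Inpp5d at 423 and 431. None of 12 B lineage transcription factors passed (median 0.19), among them Bach2 at 414 and 562, Pou2f2 at 371 and 375, and Ikzf1 at 337 and 286. None of 14 genes of B cell surface and survival passed (median 0.07), nor any of 10 of class II antigen presentation (median 0.08), where Cd74, the invariant chain, stood at 15815 and 15392. None of 8 activation genes passed (median 0.05); Nr4a1, an early gene of receptor signalling, stood at 827 and 1117, and Jun at 599 and 352. Among the 6 immunoglobulin genes (median 0.17) 1 passed, Iglc1, at 665 and 144, and 1 cell held 97 of the 140 molecules of Iglc1 in the pool labelled wild-type. Ighd, the delta heavy chain of naive B cells, stood at 594 and 1011.

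Lists of B cell states held fewer molecules. None of the 7 follicular genes passed (median 0.08), where Btla stood at 228 and 400, while Klf2 stood at 556 and 327. Of 10 genes of the B-1 list 6 were tested, with a median log2 ratio of -0.82, and 1 passed: Plscr1, a phospholipid scramblase, with 25 and 9 molecules, at 119 and 22.8 CPM. S100a6, Ctla4, Ahnak and Anxa2, the members of that list with the most molecules, stood at 471 and 314, 342 and 306, 366 and 195, and 114 and 68.4, and macrophages and other cells use several of them too; 1 cell held 48 of the 99 S100a6 molecules in the first pool and 1 held 39 of 124 in the second. The summed B-1 list was 1640 and 1033 CPM, and the macrophage markers in the same cells were 2034 and 1444; their part in this was not tested. Of 3 tested genes of class-switched and memory cells 1 passed, Ighg2c, with 13 and 7 molecules, at 61.8 and 17.7 CPM, while Ighg2b stood at 61.8 and 50.7. None of 3 marginal zone genes passed (Marcks, Dtx1 and Cd9), and none of 2 of the atypical T-bet list (Zeb2 and Fcrl5). In the germinal centre list Gcsam, and in the immature list Vpreb1, Igll1 and Rag2, had no molecule in any of the 149 cells, leaving Bcl6 (66.5 and 65.9) and Vpreb3 (47.5 and 68.4) as the 1 tested gene of each.

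Fcer2a and Cr2 divided the B cells into 4 classes by detection. In the pool labelled wild-type 10 of 48 cells had both, 5 had Fcer2a alone, 11 had Cr2 alone and 22 had neither (45.8%, 31.4% to 60.8%). In the pool labelled Saa3-/- 33 of 101 had both, 21 Fcer2a alone, 20 Cr2 alone and 27 neither (26.7%, 18.4% to 36.5%). A cell with no molecule may still express the gene, since the median B cell held 3684.5 and 3318 molecules. Median depth was 3986 molecules in cells with Fcer2a and 2977 in cells with neither gene in the pool labelled wild-type. In the pool labelled Saa3-/- it was 3416 and 3156, so the neither class held the shallower cells in both pools. Cr2 was present in 62.3% (49.8% to 73.7%) of the 69 cells with Fcer2a and in 38.8% (28.1% to 50.3%) of the 80 without it, at median depths of 3479 and 3277.5 molecules; the intervals meet at their ends. The direction was the same in each pool, 66.7% against 33.3% and 61.1% against 42.6%, where the intervals overlap, and after thinning (40.0% against 23.5% over both pools).

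The identity genes were compared across this division. Over both pools, Cd79a stood at 2673 (2491 to 2865) CPM in cells with Fcer2a and 2710 (2529 to 2900) in cells without it, Bank1 at 1171 and 1156, Cd37 at 1046 and 1036, Ms4a1 at 946 and 1062, Pax5 at 476 and 544, and Cd79b at 402 and 375, all with overlapping intervals. Within the pool labelled wild-type, however, Ms4a1 stood at 802 (617 to 1024) with Fcer2a and 1279 (1093 to 1489) without, and Pax5 at 188 (105 to 310) and 452 (344 to 583), with intervals that do not overlap; within the pool labelled Saa3-/- those of both genes overlap. Ighd stood at 1223 (1081 to 1379) with Fcer2a and 748 (626 to 887) without in the pool labelled Saa3-/-, intervals that do not overlap, and at 701 (530 to 911) and 529 (411 to 669) in the pool labelled wild-type, where they do. The follicular list as a whole, Ighd included, was 3147 (2916 to 3392) in cells with Fcer2a of the pool labelled Saa3-/- against 1715 (1477 to 1981) in cells with neither gene, but 2242 and 1843, with overlapping intervals, in the pool labelled wild-type. Without the highest cell of each class the last pair was 2766 and 1720, and without the cells that had 3 markers of another gate it was 3109 (2555 to 3748) and 2185 (1667 to 2812).

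The B-1 list ran the other way, at 2489 (2162 to 2852) in cells with neither gene against 1177 (951 to 1441) in cells with Fcer2a in the pool labelled wild-type, and 1604 (1374 to 1862) against 866 (747 to 998) in the pool labelled Saa3-/-. A single cell of the neither class held 92 of the list's 208 molecules in the first pool and 53 of 173 in the second, and without the highest cell of each class the values were 1583 against 1096 and 1242 against 809. The median cell of the neither class held 4 and 2 molecules of the list, and the median cell with Fcer2a held 4 and 3, so the sums rest on a minority of cells. Without the cells that had 3 markers of another gate, a comparison also chosen after seeing the data, the B-1 list no longer differed in the pool labelled wild-type, at 1020 (677 to 1474) in 10 cells with neither gene and 1131 (808 to 1540) in 9 cells with Fcer2a. The values for the pool labelled Saa3-/- were then 1194 (853 to 1626) in 12 cells against 608 (444 to 814) in 24. The macrophage markers were at 1616 and 1576 CPM in cells with neither gene and at 3056 and 1663 in cells with Fcer2a, where 1 cell held 217 of 244 molecules in the first pool, and their part was not tested. Switched and memory genes stood at 383 (262 to 541) against 75.1 (27.6 to 164), and 195 (121 to 298) against 105 (66.8 to 158), which overlap, from 6 to 32 molecules in each class; without the cells that had 3 markers of another gate they stood at 218 (80.2 to 476) against 84.8 (17.5 to 248) and 269 (123 to 510) against 54.1 (14.7 to 138), from 3 to 9 molecules in each class, with overlapping intervals. Ighm was 2980 (2621 to 3374) in cells with neither gene and 2167 (1856 to 2515) in cells with Fcer2a in the pool labelled wild-type, and 3644 (3293 to 4023) and 2437 (2234 to 2653) in the pool labelled Saa3-/-. Marginal zone, germinal centre, immature and atypical T-bet lists had intervals that overlap between the classes in both pools.

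**Figure D5:**
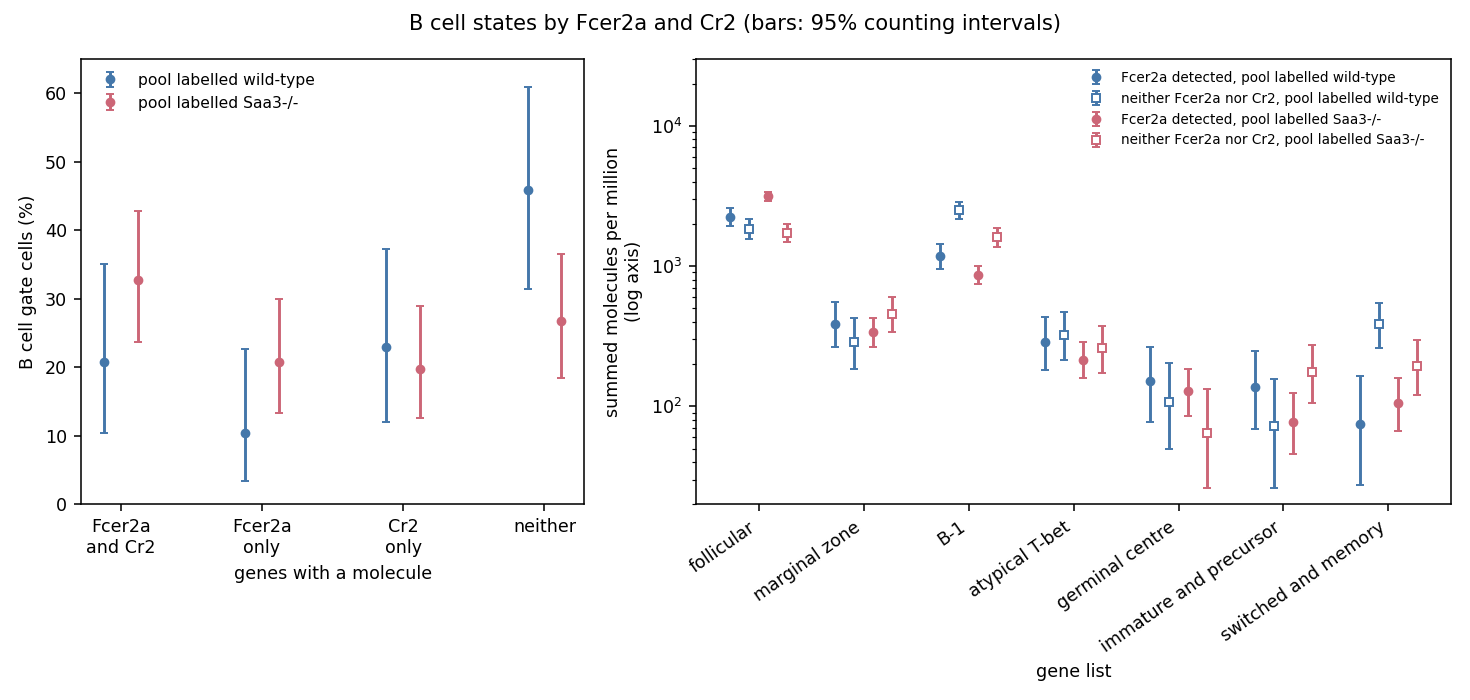
Left, share of B cell gate cells with a molecule of Fcer2a and Cr2, of 1 of them or of neither, by pool (blue wild-type label, red Saa3-/- label; exact 95% binomial intervals); right, summed level of 7 gene lists (CPM, log axis, exact 95% Poisson intervals) in cells with Fcer2a (filled circles) and in cells with neither gene (open squares). The neither class is 45.8% and 26.7% of B cells, and the B-1 list is higher in it than in cells with Fcer2a in both pools, which in the pool labelled wild-type did not hold without cells with 3 markers of another gate.

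Genes most like each member were sought over 16 sums of gates of at least 15 cells in each pool, among genes with at least 100 molecules, with the members themselves and the gate markers left out. Several members were nearer to each other than to any gene found this way, such as Cd79a and Ms4a1 (Pearson r 0.98). These sums come from the same 2 pools and only 2 of the 16 are B cell gates, so the correlations are descriptions. Among the genes searched, Tnfrsf13c, the receptor for the survival factor BAFF, was closest to Cd79a (0.96) and to Ms4a1 (0.97), followed for both by Ighm (0.96 and 0.95) and Fcrl1 (0.95 and 0.94). Igkc was closest to Cd79b (0.97), then Ighd (0.96) and Spib (0.95). Fcrl1 was closest to Pax5 (0.98), then Igkc and Ighd (0.98 each), and Ighm to Bank1, then Spib and Tnfrsf13c (0.95, 0.95 and 0.94). Ighd was closest to Fcer2a (0.97), then Iglc3 and Igkc (0.95 each), and Snn to Cr2, then Ighd and Trim7 (0.94, 0.94 and 0.93). Tnfrsf13c stood at 190 and 253 CPM in B cells and at 4.89 and 2.24 in T cells. Outside the B lineage, Cd37 was nearest Itsn2 (0.93), Prkcb (0.92) and Nfkbid (0.91), and Cd5 was nearest Trdv4 (0.95), Trdc (0.95) and Il23r (0.93), which are high in the T cell gate; within that gate, Cd5 was low in the gamma-delta cells that carry Trdc.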

How the data were processed

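The authors deposited 2 tables of molecule counts per cell and gene, 1 for each sample tag, made with the BD Rhapsody WTA Analysis Pipeline 1.11.1 and GENCODE mouse release 19, per the file headers; the submitters' processing notes name R 4.3.1 and Seurat 4.3.0. The counts are whole numbers, 7410729 and 5297952 in all. Which tag is which genotype is given by the tables' names alone. Of 2401 putative cells, 647 without a tag call and 11 multiplets are in neither table. The 4 samples of cultured macrophages were not analysed here.

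Cells with over 25% of molecules from mitochondrial genes were left out (56 and 31). Each cell went to the gate with the highest mean z score of its 5 to 8 fixed markers, if at least 3 were detected and the lead was at least 0.2; members were never gate markers. Counts were summed by gate and pool and divided by the sum of all molecules there (CPM). The ratio between pools used genes with at least 20 molecules and a limit of 1 on the log2 scale. T cell subsets were set in turn by detected genes: at least 2 of Rag1, Rag2, Dntt, Ptcra and Arpp21; gamma-delta receptor genes above alpha-beta ones; at least 2 of Foxp3, Il2ra, Ctla4 and Ikzf2; Cd8 without Cd4; and Cd4 without Cd8. No doublet caller was run, and alternatives leave out deep or mixed cells. The named genes are the members, at most 4 genes per list with the most molecules in the B cell gate, and the 3 genes most like each member. Plscr1, Ighg2c and Iglc1 are named because they passed the limit, and Gcsam, Vpreb1, Igll1 and Rag2 because they were at 0, after their values were seen. The members and lists were chosen with earlier results of these data known. Python 3.11.15, NumPy 2.4.6, SciPy 1.17.1, pandas 2.3.3 and Scanpy 1.11.5 were used, and the ratio was tested on simulated data. Alternatives changed the cell filter, gate, scaling, count minimum, pseudocount and limits; those without mixed cells were chosen after seeing the data. Some genes of the lists and gates are not reported here by name.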

Additional observations from a re-analysis of the deposited data

Results flagged for a closer look

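The 87 cells over the limit on mitochondrial molecules entered no comparison, and members were found in them above the 3 counts that a count of 0 allows. They held 9 molecules of Cd79a, 6 of Bank1, 20 of Cd37 and 4 of Cd5, among 187166 molecules. Cd37 was found in 12 of the 87 cells, Bank1 in 4 and Cd79a in 3. All 4 Cd5 molecules lay in 1 cell, Fcer2a had no molecule, and 1 of the 87 cells met the B cell gate.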

How the results depend on the processing

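Of the alternatives to results that answer a comparison, 62 left the value within its interval or within 1.5 times the count and 11 moved it. These results are shares and counts, which have no direction to reverse. Of the alternatives for single members, 429 left the value within its interval and 35 moved it. Fcer2a, the 1 member called between the pools, kept its sign in 14 alternatives (0.86 to 1.41). Cr2, which was not called, ranged from -0.18 to 0.72. Without B cell gate cells with 3 markers of another gate, the B cell shares were 3.33% and 5.99%, and 276 of 2263 genes passed the limit between the pools in place of 490 of 5024. The members past that limit went from 1 to 0 without cells of over 2 times the median molecules, as a mean over cells and after thinning. The number of all genes past it was 80 of 2320 tested with at least 50 molecules, 4235 of 14568 with at least 1 and 65 of 2098 after thinning; the cause was not tested. The genes past the fold limit over the highest other gate were 90 at 2-fold and 20 at 8-fold, against 42. The 8 members other than Cd5 were highest in the B cell gate in both pools in all 9 alternatives run, and Leiden clustering without the members placed 141 of 149 B cell gate cells in 1 cluster. Cd37 passed the 4-fold limit in 1 pool with at least 4 markers (4.81, pool labelled wild-type) and without deep cells (4.61, pool labelled Saa3-/-). No paired analysis was possible because each genotype has 1 pool of cells. With 35 to 149 molecules of Fcer2a and Cr2 in a pool, depth limits what can be said of single cells.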

Other observations

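Of all molecules of each member in the pool labelled wild-type, the B cell gate held 47.8% for Cd79a, 54.8% for Pax5, 53.0% for Fcer2a and 16.2% for Cd37. In the pool labelled Saa3-/- the shares were 76.1%, 88.7%, 84.7% and 34.8%. All 149 cells of the gate had at least 1 of Cd79a, Cd79b and Ms4a1, and all 3 were found together in 34 of 48 and 47 of 101 cells. For every 100 Cd79a molecules over both pools, B cells held 43.2 of Bank1, 37.3 of Ms4a1 and 14.4 of Cd79b, and macrophages 58.2, 34.3 and 20.5, while T cells held 40 of Bank1, 10 of Ms4a1 and 40 of Cd79b, from 40 Cd79a molecules in all.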
